A study of Mus musculus with 4 samples.

Results

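The regions described here are stretches of open chromatin that both control libraries held among their 22959 highest-scoring peaks and neither mutant library did, when every library was held to the same number of peaks. The assay was ATAC-seq: a transposase cuts and tags DNA that is not packed away, and places where many tagged fragments pile up are called peaks. From each deposited peak list the 22959 peaks with the highest deposited score on chromosomes 1 to 19 and X were kept, with ties taken in file order. Kept peaks of the 4 libraries that shared at least 1 bp were merged into 29724 regions, and 638 of them, 2.15%, held a kept peak in both controls and in neither mutant. These 638 are called control-only regions. They were chosen by the deposited peak scores of the same 4 libraries, so their presence in controls and absence in mutants is a description and not a result.

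The cells were mesenchyme of the embryonic mouse palate at E14.5, sorted by green fluorescence, and 50000 cells were pooled for each group. Controls (2 libraries) were Shox2Cre/+;Nkx2.5F/F;R26RmTmG and mutants (2 libraries) were Shox2Cre/-;Nkx2.5F/F;R26RmTmG, so both groups carried Cre at Shox2, the floxed Nkx2.5 alleles and the reporter, and controls kept 1 intact Shox2 allele and were not wild type. Cre is driven from the Shox2 locus, and the sorted cells are those in which it has acted or their descendants. In these cells Cre can also act on the floxed Nkx2.5 alleles, in both groups, which was not examined here. Whether the libraries of 1 genotype are separate pools of embryos is not in the labels, so the spread between them may be technical. In a pool of cells, fewer cells with a region open and a region less open in each cell cannot be told apart.

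Shox2 encodes a homeobox transcription factor that is active in the front of the palate, in the heart's pacemaker region and in the limb. Homeobox factors bind short AT-rich elements, many of them in enhancers far from gene starts, and enhancers in use usually lie in open chromatin. Loss of Shox2 in mice is known to leave a cleft in the anterior palate. Accessibility at gene starts is shared by most cell types, whereas distal accessibility varies more between them.

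Equal numbers of peaks did not mean equal strength. The short list of control 2 held 22959 usable peaks, so all of them were kept, down to a score of 29. The lowest kept score was 179 in control 1, 163 in mutant 1 and 184 in mutant 2, which left 7266, 6258 and 8862 listed peaks below the cut. The deposited score is about 10 times the −log10 p of the peak. A control 2 peak therefore counted at a strength at which a mutant peak did not, while a weaker peak below the cut can be looked up in control 1 and both mutants but not in control 2. Read depth is unknown. The median score of kept peaks was 388 for control 1, 251 for control 2, 349 for mutant 1 and 384 for mutant 2. Kept peaks lay within 1 kb of a gene start in 48.4% of cases for control 1, 48.5% for control 2, 48.1% for mutant 1 and 47.9% for mutant 2. The control mean was 0.477 percentage points higher (two-sided exact permutation p = 0.33, the smallest that 2 libraries against 2 allow). Without control 2, 1873 regions were kept in control 1 and in neither mutant, of which 66.0% had a weaker mutant peak and 11.6% lay near a gene start.

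Control-only regions at gene starts overlapped 82 RefSeq promoter windows of 72 protein-coding genes, each window running from 250 bases before to 50 after a start. The 250 upstream bases of 5 of them are shown because they are the strongest such region without a mutant peak (C130074G19Rik), with a weaker peak in 1 mutant (Selenon) and with one in both (Ezr), a signalling gene from the lists (Tgfb1), and a contrast without GC boxes (Il1rapl1). Only windows that lay wholly in the region, started at the edge of their gene and ran into no other gene were taken. Sequences are from RefSeq, written 5′ to 3′ on the strand of the gene. Capitals mark matches on either strand to 7 motifs, namely the homeodomain palindrome TAATTA, the AP-1 element TGANTCA, the CCAAT box CCAAT, the GC box GGGCGG, the E-box CACGTG, the RUNX core TGTGGT and the TATA box TATAAA.
C130074G19Rik (GRCm38.p6, - strand, chr1:184883037-184883286): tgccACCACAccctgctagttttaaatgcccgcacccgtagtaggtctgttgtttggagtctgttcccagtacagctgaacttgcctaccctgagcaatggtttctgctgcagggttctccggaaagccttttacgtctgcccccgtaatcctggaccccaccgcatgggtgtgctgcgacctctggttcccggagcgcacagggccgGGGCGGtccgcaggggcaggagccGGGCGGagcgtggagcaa
Selenon (GRCm38.p6, - strand, chr4:134552167-134552416): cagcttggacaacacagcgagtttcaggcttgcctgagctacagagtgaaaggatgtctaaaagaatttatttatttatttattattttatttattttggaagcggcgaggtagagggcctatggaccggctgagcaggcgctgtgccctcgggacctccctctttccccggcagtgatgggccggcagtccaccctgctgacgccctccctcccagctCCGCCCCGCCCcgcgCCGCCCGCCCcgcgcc
Ezr (GRCm38.p6, - strand, chr17:6782781-6783030): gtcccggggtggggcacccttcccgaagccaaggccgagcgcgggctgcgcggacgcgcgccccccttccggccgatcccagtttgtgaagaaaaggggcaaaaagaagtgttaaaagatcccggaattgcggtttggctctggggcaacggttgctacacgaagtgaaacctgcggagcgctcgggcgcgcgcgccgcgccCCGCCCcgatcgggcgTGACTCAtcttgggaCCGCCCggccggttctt
Tgfb1 (GRCm38.p6, + strand, chr7:25686752-25687001): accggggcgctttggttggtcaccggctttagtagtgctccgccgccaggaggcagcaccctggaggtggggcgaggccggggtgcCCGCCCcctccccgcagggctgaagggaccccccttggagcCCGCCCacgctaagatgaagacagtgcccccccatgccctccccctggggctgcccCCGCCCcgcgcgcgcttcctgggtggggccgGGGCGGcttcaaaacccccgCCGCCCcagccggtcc
Il1rapl1 (GRCm38.p6, - strand, chrX:88115949-88116198): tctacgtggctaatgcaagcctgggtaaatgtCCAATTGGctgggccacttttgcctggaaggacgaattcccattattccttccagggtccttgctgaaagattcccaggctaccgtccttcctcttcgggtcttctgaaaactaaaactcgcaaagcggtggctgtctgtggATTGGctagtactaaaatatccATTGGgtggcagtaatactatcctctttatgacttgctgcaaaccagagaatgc

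GC content of these upstream stretches ran from 47.6% at Il1rapl1 to 75.2% at Tgfb1. Selenon, which encodes a selenoprotein, held 4 GC boxes, and Tgfb1, which encodes a growth factor of the TGF-beta family, held 5. The promoter of Ezr, the gene of the membrane linker ezrin, held 2 GC boxes and 1 AP-1 element. C130074G19Rik held 2 GC boxes and 1 RUNX core, and Il1rapl1, a gene of a synaptic receptor-like protein, held 4 CCAAT matches, of which a pair overlaps, and 0 GC boxes.

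Over all 82 windows, 59.8% held a GC box in the 250 upstream bases, against 64.6% of the 10581 windows at regions of all 4 libraries, 41.7% of the 48 windows at mutant-only regions and 43.1% of all 21045 listed windows. The homeodomain palindrome, the kind of element to which factors such as Shox2 bind, was found in 1 of the 82 windows, at Rapgef2, or 1.22%. It was found in 4 of 48 windows at mutant-only regions (8.33%), in 1.90% at regions of all 4 libraries and in 4.24% of all listed windows. Over whole windows, the median ratio of observed to expected CpG was 0.681 at control-only regions, 0.647 at mutant-only regions, 0.798 at regions of all 4 libraries and 0.574 over all windows. A match describes these letters only, and most control-only regions lay away from the windows, where no sequence was used.

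Most control-only regions had a weaker peak in a mutant library. A peak below the cut lay in the region in at least 1 mutant at 460 of 638 regions, 72.1% (exact Clopper-Pearson 95% interval 68.4% to 75.5%, which treats regions as independent). In both mutants such a peak was listed at 174 regions (27.3%), in mutant 1 alone at 92 (14.4%) and in mutant 2 alone at 194 (30.4%). The other 178 regions (27.9%, interval 24.5% to 31.6%) held no peak of either mutant in the full lists. All 178 lay, in both mutants, between neighbouring listed peaks with at least 1 peak number missing, with a median of 6 missing numbers in mutant 1 and 5 in mutant 2. How often numbers are missing between other neighbouring peaks was not counted, so the missing numbers do not set these regions apart. The deposited peaks are thus a numbered subset, and whether a mutant peak was removed at these regions cannot be told from the lists.

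The share with a weaker mutant peak was lower than at regions kept in the other 3 libraries and higher than at regions of 1 control alone. Mutant 1 had one at 41.7% of control-only regions, and at 46.0% of the 748 regions kept in the other 3 libraries. For mutant 2 the shares were 57.7% and 63.9% (646 regions). At the 1233 regions kept in control 1 alone they were 34.9% in mutant 1 and 45.8% in mutant 2, and at the 1939 kept in control 2 alone they were 30.7% and 40.7%. These differences were not tested. In the reverse direction, control 1 had a weaker peak at 327 of the 711 mutant-only regions (46.0%), and control 2 had no peak below its cut to find.

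The control-only regions came from the weak end of each control list. Their control 1 peaks had −log10 p values from 17.9 to 41.8 with a median of 21.1, and their control 2 peaks from 7.95 to 31.1 with a median of 14.05. Ranked among the kept peaks of its own library, with the strongest at the top percentile, the lower-placed control peak of a region had a median percentile of 8.57. It was above 25 at 45 regions and below 10 at 360. In control 2, 469 of the 638 peaks (73.5%) scored below the cut of mutant 1 and 552 (86.5%) below that of mutant 2. Only 81 regions (12.7%) had both control scores at or above both mutant cuts, and 28 of these held no mutant peak in the full lists.

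The weaker mutant peaks lay close to those values. At the 266 regions with a mutant 1 peak its median −log10 p was 14.6, and at the 368 with a mutant 2 peak it was 15.7. The mutant 1 score exceeded that of control 2 at 131 of 266 regions and the mutant 2 score at 226 of 368. Among the 174 regions with peaks in all 4 full lists, both control scores were above both mutant scores at 50, and both deposited enrichments were above at 124. The authors' median enrichment over control-only regions was 6.35 in control 1 and 5.62 in control 2, and that of the weaker peaks was 4.81 in mutant 1 and 5.04 in mutant 2. The control medians cover all 638 regions, and those of the weaker peaks the 266 and 368 regions that had one. Weaker peaks lay below their cuts by rule, so lower mutant scores and enrichments, also at the 174 regions, follow in part from the selection. Scores grow with depth, which is unknown, and these values belong to single peaks.

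**Figure D1:**
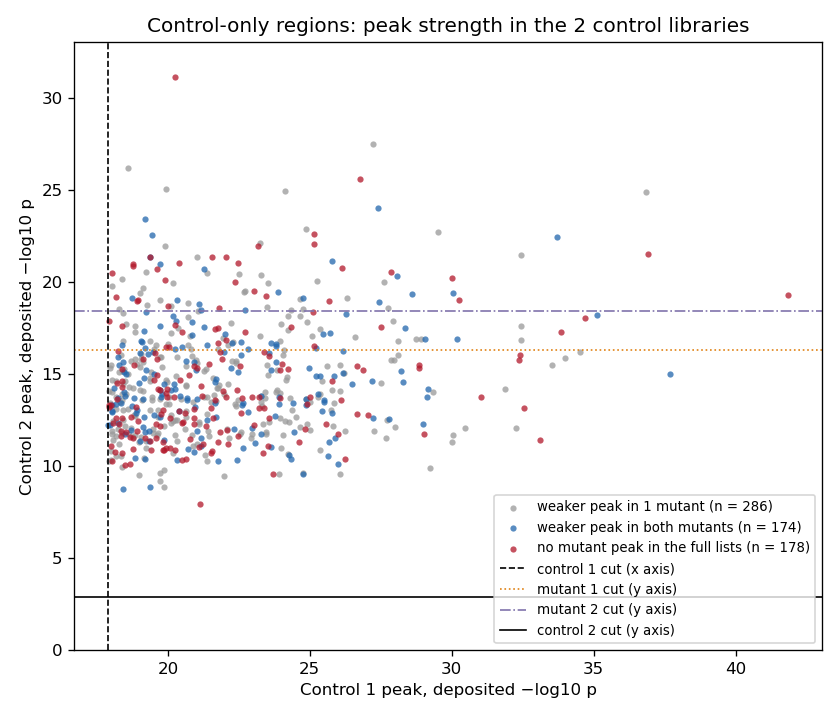
Each point is 1 of the 638 control-only regions, with the deposited −log10 p of its control 1 peak on the x axis and of its control 2 peak on the y axis, coloured by the mutant libraries that hold a weaker peak there. Lines mark the lowest kept value of each library; 552 points lie below the mutant 2 line, and the 3 colours overlap throughout.

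Control peaks were of like strength with and without a mutant peak. Median −log10 p in control 1 was 21.1, 21.0 and 21.2 at regions with no mutant peak, with 1 and with both. In control 2 it was 13.7, 14.1 and 14.2. Regions without a mutant peak were narrower, with a median length of 743.5 bp against 835 bp with 1 and 894 bp with both. The median was 819.5 bp over all control-only regions, 790 bp over mutant-only regions and 1178 bp over regions of all 4 libraries. These lengths depend in part on the rule. A region spans all its merged kept peaks, so more libraries can make it longer. A longer region also has more room to share 1 bp with a weaker peak.

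The threshold fell among peaks of the same score. The weakest regions just inside, inside Pot1a (chromosome 6, 25766902 to 25767543), 36.6 kb from Scarb1 (chromosome 5, 125240156 to 125240729) and 30.7 kb from Pmepa1 (chromosome 2, 173306936 to 173307901), had control 1 scores of 179. Regions just outside, inside Prdm10 (chromosome 9, 31321393 to 31322082), inside Uvrag (chromosome 7, 99076825 to 99077673) and 17.0 kb from Eif4e3 (chromosome 6, 99604577 to 99605188), had the same control 1 score of 179 and a control 2 peak, and file order decided. In control 1, 119 peaks shared that score.

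Within a region, peaks of the libraries had summits at close positions. The summits of the control peaks were a median of 56.5 bp apart and within 100 bp at 460 regions (72.1%), compared with 77.5% at regions of all 4 libraries and 78.3% between the mutants at mutant-only regions. Summits of weaker mutant peaks lay a median of 60.0 bp (mutant 1) and 59.0 bp (mutant 2) from the control 1 summit. A kept mutant peak lay within 1 kb of the edge of 12 of the 638 control-only regions, and the median distance to one was 23.6 kb.

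Control-only regions were ordered by the percentile of their lower-placed control peak, and strongest means highest by that measure. The first of them lay beside Shox2 itself, although single control peaks of other regions, such as those at Jarid2 and Il12a, had higher values. It spanned 1370 bp (mm10, chromosome 3, 66853961 to 66855330), 117 kb from the gene body on the side of the 3′ end, with Shox2 as the nearest protein-coding gene although past the 100 kb used for assignment. Its −log10 p was 36.8 in control 1, 24.9 in control 2 and 17.4 in mutant 2, and mutant 1 listed no peak. The authors' enrichment was 8.99, 7.95 and 6.79. Both controls were above the only mutant value, which ranking by control strength favours. The mutant 2 peak missed its library's cut of 184 with a score of 173. Of 26 regions within 1 Mb of Shox2 it was the only control-only one, and 0 were mutant-only. Within 5 Mb there were 4 control-only and 7 mutant-only among 113 regions (3.54% and 6.19%). Over chromosome 3 the shares were 1.81% and 3.04%. DNA linked to the Shox2 alleles differs between the groups by design, and its part and that of Shox2 loss cannot be told apart here.

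The other 3 control-only regions within 5 Mb of Shox2, named for their position, ranked lower. A pair lay 8.94 kb (chromosome 3, 65845073 to 65845865) and 33.4 kb (65625673 to 65626555) from Lekr1. The first had −log10 p values of 27.4 and 18.9 in the controls and weaker peaks of 14.7 in mutant 1 and 15.5 in mutant 2. The second had 22.4 and 15.7 in the controls and 17.4 in mutant 2, between the control values. A region 13.6 kb from Il12a, an interleukin subunit gene (chromosome 3, 68676644 to 68677426), had 20.3 and 31.1 in the controls, the highest control 2 value of all 638, and no mutant peak. No control-only region was assigned to Shox2 within 100 kb or to Nkx2-5, another homeobox gene, whose single assigned region was kept in all 4 libraries.

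Regions without any listed mutant peak were led by one 28.2 kb from Tfpi, which encodes an inhibitor of blood coagulation (chromosome 2, 84504517 to 84505454). Its −log10 p was 36.9 and 21.5 in the controls, and its enrichments, 10.3 and 8.82, included the highest control 1 value of all members. The region inside Jarid2, which encodes a partner of Polycomb repressive complexes (chromosome 13, 44912767 to 44913377), had the highest control 1 value of the 638, 41.8, beside 19.3 in control 2. Within 1 kb of the start of Bex2 (chromosome X, 136067111 to 136067680), a small X-linked gene, the values were 30.0 and 20.2. A region 97.2 kb from Grm4, a glutamate receptor gene (chromosome 17, 27324860 to 27325594), had 30.3 and 19.02. One 8.62 kb from the olfactory receptor gene Olfr1066 (chromosome 2, 86464564 to 86465206) had 27.9 and 20.5. In all 5, control 1 was above control 2.

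Regions with a weaker peak in both mutants could be read in all 4 libraries. The strongest lay inside Mid1, the gene of a microtubule-bound ubiquitin ligase that is mutated in Opitz syndrome, a human disorder of midline structures (chromosome X, 169986691 to 169987704). Its −log10 p was 33.7 and 22.4 in the controls against 16.3 and 17.8 in the mutants, and both mutant peaks missed the cut closely, with scores of 162 and 178. Inside Mcph1, which encodes microcephalin (chromosome 8, 18782420 to 18783407), the values were 30.0 and 19.4 against 13.9 and 14.7. Inside Ryr2, the gene of a calcium release channel of the heart (chromosome 13, 11926594 to 11927578), they were 28.6 and 19.4 against 11.9 and 16.9. Another region held the starts of both Deaf1, a transcription factor gene, and Eps8l2 (chromosome 7, 141338554 to 141339222). Its values were 28.1 and 20.3 against 15.3 and 13.1. Inside Smtnl1, a gene of a smoothelin-like muscle protein (chromosome 2, 84810725 to 84811648), they were 35.1 and 18.2 against 15.7 and 15.9. In these 5 the lowest control value was above the highest mutant value. This follows largely from ranking by control strength and from mutant peaks lying below their cuts by rule. Among all 174 regions with peaks in all 4 full lists, both control scores were above both mutant scores at 50. In the 5 named here, the gap from control 2 to the mutants was smaller than the gap between the controls.

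Of the 10 strongest regions, the remaining ones had a peak in a single mutant. At the start of Gramd4 (chromosome 15, 86058204 to 86059377) the controls had 29.5 and 22.7 and mutant 1 had 15.7. In the interval 112 kb from Stmnd1 (chromosome 13, 46161187 to 46162447) they had 32.4 and 21.5, and mutant 2 had 18.2.

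**Figure D2:**
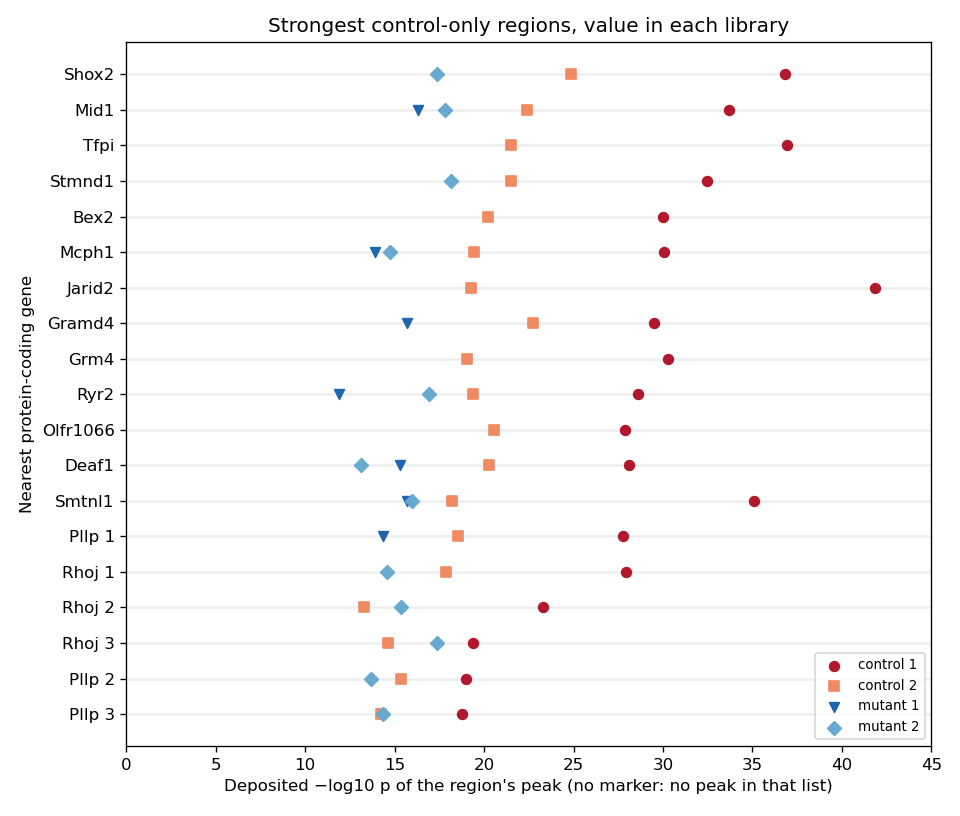
Deposited −log10 p (x axis) of the peak in each library for the strongest control-only regions and those at Pllp and Rhoj, labelled by nearest protein-coding gene; a missing marker means no peak in that full list. Control 1 is the highest marker in every row, and at Rhoj 2 and 3 and Pllp 3 mutant 2 lies above control 2.

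Control-only regions lay mostly away from gene starts. Within 1 kb of a start (of either end for genes without a listed start) were 95 of 638 (14.9%, exact Clopper-Pearson 95% interval 12.2% to 17.9%), inside genes 264, outside genes but within 100 kb of one 201, and farther away 78 (12.2%). Regions of all 4 libraries lay near a start in 59.5% of cases and beyond 100 kb in 6.57%. Mutant-only regions did so in 8.02% (interval 6.13% to 10.3%) and 20.5%. In the other classes of exactly 2 libraries, which mix genotypes, the near-start share ran from 11.2% to 15.2% and the share beyond 100 kb from 13.9% to 17.7%. The near-start share of control-only regions thus lay within the range of the mixed classes, and their share beyond 100 kb lay below it. No test over regions was made, since regions of a library are not replicates. Near-start shares were 10.7% at the 178 regions without a mutant peak, 17.1% with 1 and 15.5% with both.

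**Figure D3:**
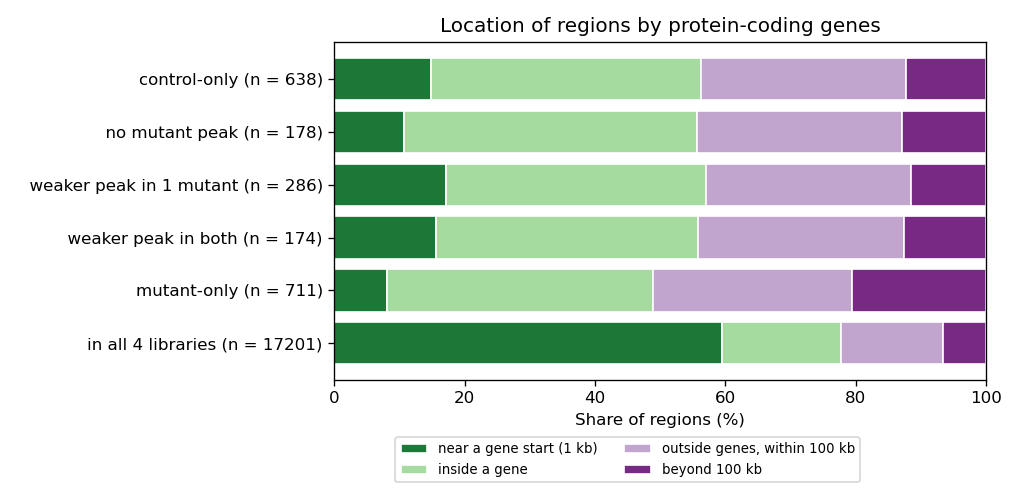
Share of regions (x axis, %) by position relative to protein-coding genes for control-only regions, their subsets by weaker mutant peaks, mutant-only regions and regions kept in all 4 libraries. Control-only regions have 14.9% near a gene start, against 8.02% of mutant-only regions and 59.5% of regions in all 4 libraries. The other classes of exactly 2 libraries, which mix genotypes and are not drawn, ran from 11.2% to 15.2%.

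Among near-start regions without a mutant peak, 19 in all, were those of Igf2, the gene of a fetal growth factor (chromosome 7, 142658804 to 142659844), Dock9, a Cdc42 exchange factor gene (chromosome 14, 121697041 to 121698782), and Mthfsl (chromosome 9, 88719849 to 88720721). Mthfsl had −log10 p values of 26.8 and 25.6, and Dock9, with 21.5 and 21.3, had the closest pair of the 19. At Igf2 they were 19.8 and 10.8. These 3 genes were chosen after their values were seen. Chromosomes held between 14 (X) and 54 (2 and 6) control-only regions, or from 1.44% of the regions of chromosome 16 to 3.24% of those of chromosome 6.

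Control-only regions were spread thinly over genes. The 560 regions within 100 kb of a protein-coding gene were assigned to 534 genes, 2.47% of 21631, while 529 genes (2.45%) had a mutant-only region. Of the 534 genes, 367 also had a region kept in all 4 libraries, 39 had a mutant-only region, and 96 had no region other than control-only ones. Only Rhoj and Pllp had 3 control-only regions, the most at any gene, and 22 genes had 2. There were 20 neighbouring pairs of control-only regions at most 50 kb apart, against 14 pairs of mutant-only regions.

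All 3 regions of Rhoj, a small GTPase gene known from endothelial cells, lay inside the gene on chromosome 12. At 75389315 to 75390265 the −log10 p was 27.9 and 17.9 in the controls and 14.6 in mutant 2. At 75352346 to 75353286 it was 23.3 and 13.3 against 15.4, and at 75374031 to 75374927 it was 19.4 and 14.6 against 17.4. Mutant 1 listed none of the 3, while mutant 2 lay above control 2 in the last 2 of them.

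The regions of Pllp, which encodes the myelin membrane protein plasmolipin, lay on chromosome 8, one inside the gene and the others 7.59 and 15.2 kb away. At 94702771 to 94704888 the values were 27.8 and 18.6 in the controls and 14.3 in mutant 1, and the control summits stood 1122 bp apart, the widest spacing of all members. At 94678459 to 94679119 they were 19.01 and 15.4 with 13.7 in mutant 2. At 94711007 to 94711860 they were 18.8 and 14.3 with 14.4 in mutant 2. No region of Pllp was kept in all 4 libraries.

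Among 267 genes in 22 lists for the palate, its signalling pathways and other cell types, 20 genes (7.49%) had a control-only region and 22 a mutant-only one. These genes gathered more regions of every kind, 2.82 per gene against 1.23 over all protein-coding genes. Of their 754 regions 3.05% were control-only and 3.18% mutant-only, and over all regions assigned to genes the shares were 2.11% and 2.13%. The lists were chosen with earlier results of these data known, and counts per list are small, so they are given as descriptions.

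The TGF-beta pathway, which drives matrix production and palate fusion, had 4 control-only regions among 38 (10.5%) and 0 mutant-only ones. A region over the start of Tgfb1 (chromosome 7, 25686611 to 25687989) had −log10 p values of 22.5 and 11.7 in the controls and 17.0 in mutant 2, above control 2. A region inside Ltbp1, which encodes a binding protein that holds latent TGF-beta in the matrix (chromosome 17, 75189060 to 75189853), had 20.9 and 13.1 and no mutant peak. Tgfbr3, the gene of the co-receptor betaglycan, had a region 54.6 kb away (chromosome 5, 107051555 to 107052284) with 19.6 and 12.3 and no mutant peak. It had another inside the gene (107124113 to 107125329) with 21.01 and 11.2, and 16.6 in mutant 2, named in addition to the rule for lists. The BMP, hedgehog and WNT pathways had 0 control-only regions among 58, 59 and 66, and 2, 2 and 1 mutant-only ones. The FGF pathway had 2 of each among 40, with control-only regions 41.2 kb from Fgf9 (chromosome 14, 58153569 to 58154515; 21.8 and 17.5, no mutant peak) and 43.5 kb from Spry4, an inhibitor of the pathway (chromosome 18, 38542322 to 38543102; 23.0 and 12.0, with 10.99 and 16.9 in the mutants).

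Transcription factor genes of the palate had control-only and mutant-only regions in like numbers. Craniofacial transcription factors had 4 of each among 93 regions, anterior palate genes 3 and 2 among 42, posterior palate genes 1 and 0 among 12 and palate mesenchyme genes 2 and 2 among 40. At Alx4, a homeobox gene of the facial mesenchyme, a region 4 bp outside a gene end (chromosome 2, 93641669 to 93643192) had 23.4 and 13.1 and no mutant peak. Its control summits stood 607 bp apart, against a median of 56.5 bp over all 638 control-only regions. Zfhx3, a large zinc finger homeobox gene, had a region inside it with 21.6 and 12.6 and no mutant peak (chromosome 8, 108822752 to 108823434). A second region of Zfhx3 (108722539 to 108723306) had 19.3 and 11.9, with 15.1 and 17.0 in the mutants, both above control 2. Control-only regions also lay inside Eya1 (chromosome 1, 14220025 to 14220613), 50.5 kb from Tbx3 (chromosome 5, 119619545 to 119620484) and 5.25 kb from Meis2 (chromosome 2, 115855736 to 115856288). Of these 3, Tbx3 had no mutant peak, with 21.2 and 14.3 in the controls, and the others a peak in 1 mutant. Eya1 had 23.5 and 15.5 in the controls and 17.3 in mutant 2, above control 2. Meis2 had 19.2 and 20.5 in the controls and 12.9 in mutant 1, below both. A region inside Pdgfra, a receptor gene of mesenchymal cells (chromosome 5, 75155525 to 75157239), had 18.0 and 14.7 against 15.3 in mutant 2. A region 33.2 kb from Dlx5, a homeobox gene (chromosome 6, 6914928 to 6915645), had 26.1 and 14.1 against 18.5 in mutant 2, where its score of 184 tied with the lowest kept score.

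The sinoatrial and heart list, included because Shox2 acts in the pacemaker region, had 3 control-only and 0 mutant-only regions among 32. They were the Tbx3 region, one inside Gata4 (chromosome 14, 63255721 to 63256389) with 25.002 and 13.7, and one inside Mef2c (chromosome 13, 83531900 to 83532450) with 18.2 and 12.6. None of the 3 held a mutant peak. The osteogenic list had 3 control-only regions and 1 mutant-only one among 17, at Dlx5 and a pair at Runx2, the regulator of osteoblasts. The Runx2 regions, 40.1 kb away (chromosome 17, 44455543 to 44456236) and inside the gene (44735564 to 44736722), had 20.9 and 10.7 and 18.0 and 11.9 in the controls, and mutant 2 was above control 2 at both, with 18.3 and 13.99. At the first of them mutant 1 was also above control 2, with 13.7, and at the second it listed no peak. The chondrogenic list had 0 of either kind among 30 regions. Matrix genes had 1 and 3 among 57, with a region inside Fbn1, the fibrillin-1 gene (chromosome 2, 125428758 to 125429469; 23.2 and 13.2, no mutant peak). Axon guidance genes had 2 and 6 among 123, at Robo1 (chromosome 16, 72614816 to 72615430; 22.6 and 13.3, with 13.9 and 18.3 in the mutants) and Epha3 (chromosome 16, 63528803 to 63529844; 23.8 and 12.7, with 14.6 and 18.3).

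Markers of other cell types held few control-only regions. Blood and immune markers had 1 among 14, at Spi1 (chromosome 2, 91077994 to 91079191; 19.7 and 21.0, with 12.5 and 14.985 in the mutants). Neuron, skeletal muscle, endothelial, epithelial and pericyte and smooth muscle markers and ubiquitous genes had 0, and mutant-only regions were 2 at epithelial and 1 at pericyte and smooth muscle markers. Of 15 palate mesenchyme genes, 12 had a region kept in all 4 libraries. So had 7 of 10 neuron, 6 of 10 epithelial, 5 of 8 Schwann and glia, 5 of 9 endothelial, 4 of 8 pericyte and smooth muscle, 4 of 9 blood and immune and 3 of 10 skeletal muscle markers, so such regions did not single out mesenchyme genes. The part of cell mixture in the control-only regions was not tested.

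Which regions were control-only depended on the number of peaks kept. With 22000 peaks per library there were 617 control-only regions, and 478 of the 638 were still among them. With 20000 there were 538 and 214 were held, with 18000 there were 452 and 76 were held, and with 15000 there were 339 and 9 were held. With 11479, the count was 237 in the control-only class and 234 in the mutant-only class, and 0 of the 638 were among them. Of those 237, 235 were regions kept in all 4 libraries at the full number. From 18000 peaks down to 5000, control-only and mutant-only counts stayed close to each other, with 110 and 117 at 5000. With 1 score cut of 184 in all libraries, in place of 1 number, there were 105 control-only regions against 957 mutant-only ones.

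**Figure D4:**
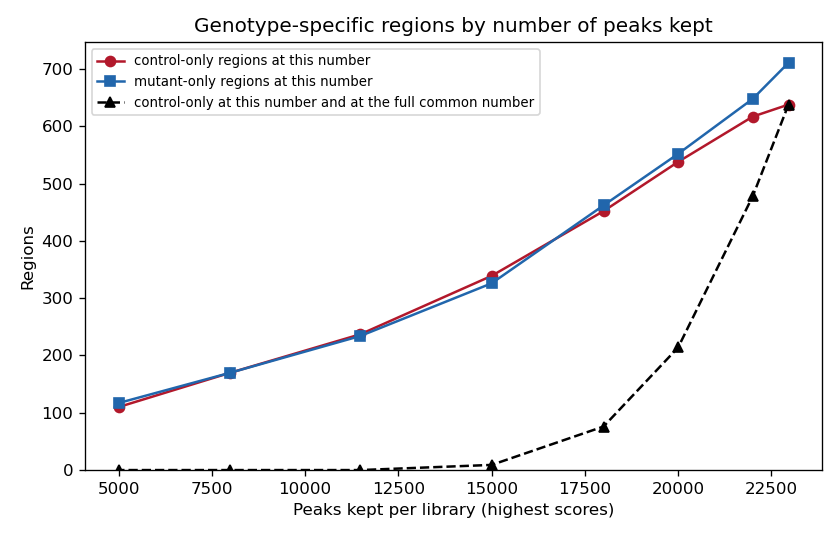
Regions (y axis) that were control-only or mutant-only when the number of highest-scoring peaks on the x axis was kept in each library, and control-only regions at that number that were also control-only at 22959. The dashed line falls from 638 to 9 at 15000 and to 0 at 11479, while the 2 solid lines stay close to each other.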

How the data were processed

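Peak lists of 2 control and 2 mutant ATAC-seq libraries were used as the authors deposited them, 1 list per library in 10 columns. The build is mm10 per the submitters' processing notes. Aligner, peak caller, transposase offset and filters: not given in the sources used here. To rank peaks, the score the authors gave each was taken. The deposited enrichment was read as a ratio (fold) to an unstated background, and the deposited −log10 p-value describes single peaks. Read depth is unknown.

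Kept peaks were merged, matched to full lists at 1 shared bp, and placed by midpoint against RefSeq genes and starts of GRCm38.p6, the same build as mm10, with 17274 of 21631 protein-coding genes having a listed start; regions were assigned to the nearest protein-coding gene within 100 kb. Genes were named by strength (10 strongest regions, 5 strongest with no mutant peak and 5 with 2), by list (up to 3 regions each), by 3 or more regions per gene, and at the threshold; regions near Shox2 and others were added where the text says so. Members and lists were chosen with earlier results of these data known, and motifs and printed promoters after the regions were seen. The code was tested on simulated data. Some items are not reported here. Exact permutation tests were used for library values. Python 3.11.15, pandas 2.3.3, NumPy 2.4.6, SciPy 1.17.1 and Matplotlib 3.10.9 were used.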

Additional observations from a re-analysis of the deposited data

How the results depend on the processing

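No paired analysis was possible because the control-only regions come from no test. Joining peaks at 200 bp, ranking by −log10 p with its decimals (added after seeing the data) and leaving out chromosome X or 3 gave 604 to 639 control-only regions, and their shares moved by less than the interval. Keeping 15000 peaks gave 339 regions, 98.8% with a weaker mutant peak, 1.18% without a mutant peak and 33.9% near a gene start. Keeping 11479 gave 237, 100%, 0% and 46.0%. Whole lists gave 425 control-only regions against 1782 mutant-only ones, with 11.1% of the former near a start, and leave no weaker peaks to count. Ranking by enrichment gave 68.0% with a weaker peak, 32.0% without and 21.6% near a start. A single score cut, chosen after seeing the data, gave 105 regions and 19.05% near a start. Counting 5 kb as near gave 23.4%. Leaving out 1 library relaxes the rule. It gave 1284 to 2581 regions (2581 without control 1, 1873 without control 2, 1284 without mutant 1, 1390 without mutant 2), 44.0% to 66.0% with a weaker peak, 34.01% to 56.0% without one and 11.6% to 17.7% near a start. The library difference in near-start share kept its direction, 0.751 points at 5 kb and 5.15 over whole lists (exact permutation p = 0.33 and 0.667), where control 2, with the short list, stood at 48.5% and control 1 at 39.1%, below mutant 1 at 39.98%. Without read depth, no limit of detection can be given for a missing peak.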

Other observations

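Some control-only regions marked starts of noncoding genes. Within 1 kb of a listed start of a gene that does not code for protein lay 26 control-only regions (4.08%), 18 mutant-only regions (2.53%) and 8.14% of regions in all 4 libraries. Of the 26, 18 were not near a protein-coding start, and all 18 lay at lncRNA genes. The strongest were at Gm10505 (the region 97.2 kb from Grm4) and at 3930402G23Rik (chromosome 8, 10928178 to 10928972), neither with a mutant peak. A region at Six3os1, the antisense lncRNA gene beside the homeobox gene Six3 (chromosome 17, 85617838 to 85618547), had −log10 p values of 21.4 and 12.8 in the controls and 18.2 in mutant 2, above control 2. These genes were chosen after their values were seen.

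Several strong control-only regions lay beyond 100 kb from their nearest protein-coding gene and were assigned to none. Examples, chosen after their values were seen, are regions 171 kb from Fst, the follistatin gene (chromosome 13, 114629716 to 114630461), with 33.9 and 17.3 and no mutant peak, and 116 kb from Has2, a hyaluronan synthase gene (chromosome 15, 56809967 to 56811071), with −log10 p values of 25.1 and 17.1 in the controls and 10.01 in mutant 2.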
